A study of Mus musculus with 4 samples.

Results

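The genes described here are 10 mouse genes of phosphatidylserine recognition, and 51 of the 74695 merged accessible regions (peaks) of the series were assigned to them. The genes were the TAM receptors Mertk, Axl and Tyro3, their bridging ligands Gas6 and Pros1, the TIM receptors Timd4 and Havcr2, the receptor gene Megf10, and the CD300 receptors Cd300a and Cd300lf. A peak went to a gene if its centre lay inside the gene, or if that gene was the nearest of 21887 protein-coding genes, up to 100 kb away. All 10 genes had at least 2 peaks.

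Chromatin was profiled by Omni-ATAC, a transposase assay of open DNA, in macrophages sorted from mouse brain parenchyma. There were 2 MDM and 2 YSM libraries. The series title makes MDM monocyte-derived macrophages, while the labels leave YSM without an expansion. Both groups carried the genotype label Ms4a3-Ai9 and the treatment label DR-3x, which is not explained. Ms4a3 marks progenitors of granulocytes and monocytes, and Ai9 is a reporter allele that Cre recombinase switches on. The labels give no age, and they do not say whether separate animals were used for the libraries. The peaks of all 4 libraries had been merged, and no value per library was used, so there is no replicate error and no test. Each merged peak carried its number of subpeaks, the peaks called in single libraries that it combines. A peak with 3 or fewer subpeaks lacked a call in 1 library or more. A peak with 4 or more may have been called in every library, though 1 library may contribute several subpeaks. The intervals do not say which library gave a call, and the depth of the libraries was not analysed here.

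Phosphatidylserine is a lipid that living cells keep on the inner face of the plasma membrane and dying cells display on the outer face. Phagocytes read it directly, through receptors such as TIM-4, or through bridging proteins. Gas6 and protein S bind the lipid with their Gla domains and the TAM receptor tyrosine kinases with their other end, and Mertk and Axl serve this recognition in microglia and other macrophages. The CD300 receptors encoded by Cd300a and Cd300lf bind the same lipid and carry inhibitory motifs in their tails.

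Start sites of 9 of the 10 genes could be placed with the RefSeq promoter table (GRCm38.p6, the assembly of mm10), whose windows run from 250 bases before to 50 after a start. In 8 of these 9 genes a merged peak overlapped the window, against 52.7% (9224 of 17492) of protein-coding genes in the table. In 7 of the 9 it had 4 or more subpeaks, against 48.9%. The part of the window that lay under a peak and before the gene's first annotated base is printed for the genes where it was longest, because these genes differ in how often the region was called. At Mertk (chr2:128698665-128698839, plus strand), Pros1 (chr16:62854085-62854302, plus strand) and Havcr2 (chr11:46454721-46454927, plus strand) the peak held 4 subpeaks. At Timd4 (chr11:46810596-46810785, plus strand) it held 1. Capitals mark matches to searched motifs, which are the Sp1 motif GGGCGG in Mertk and Pros1, the AP-1 motif TGANTCA and the RUNX motif TGTGGT in Havcr2, and the MAF motif TGCTGA in Timd4, each on either strand.

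Mertk: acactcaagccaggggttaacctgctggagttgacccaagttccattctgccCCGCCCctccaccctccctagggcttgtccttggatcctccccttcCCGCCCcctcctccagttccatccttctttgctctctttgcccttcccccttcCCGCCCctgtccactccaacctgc
Pros1: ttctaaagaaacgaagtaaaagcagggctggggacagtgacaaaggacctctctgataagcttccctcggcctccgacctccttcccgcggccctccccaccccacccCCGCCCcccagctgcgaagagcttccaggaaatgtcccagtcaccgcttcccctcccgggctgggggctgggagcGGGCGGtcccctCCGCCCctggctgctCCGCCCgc
Havcr2: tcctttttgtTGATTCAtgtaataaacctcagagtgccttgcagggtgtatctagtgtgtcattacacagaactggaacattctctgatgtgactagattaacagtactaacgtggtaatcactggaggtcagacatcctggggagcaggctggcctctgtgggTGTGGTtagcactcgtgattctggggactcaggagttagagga
Timd4: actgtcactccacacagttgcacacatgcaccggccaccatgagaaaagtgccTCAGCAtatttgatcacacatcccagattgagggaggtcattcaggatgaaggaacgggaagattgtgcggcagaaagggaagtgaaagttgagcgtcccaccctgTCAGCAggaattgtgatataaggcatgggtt

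The printed Mertk stretch had 3 Sp1 matches and the Pros1 stretch 4. The Havcr2 stretch had its AP-1 match at base 11 and its RUNX match at base 165, and the Timd4 stretch had MAF matches at bases 54 and 160, counted from the 5′ end of each stretch. None of the marked matches overlapped another.

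Over the full windows of 300 bases, the Sp1 motif was found in 5 of 9 member promoters, namely those of the 3 TAM receptors and both ligands. It was found in 35.7% of all 32851 promoters in the table. This background for motifs is not limited to protein-coding genes, unlike the shares given for peaks on promoters and for CpG. The PU.1 motif GAGGAAGT, the site of a lineage factor of macrophages, was found at Havcr2 and Cd300lf, against 3.2% of all promoters. The RUNX motif was found at the same pair of genes (16.8% of all), the AP-1 motif at Havcr2 (7.81% of all), the MAF motif at Timd4 (19.5% of all) and the TATA motif TATAAA at Cd300lf (13.6% of all). No member window held the C/EBP motif TTGCNNCAA (2.08% of all) or the CRE motif TGACGTCA (1.79% of all). The searched IRF motif, which is GAAA, any 2 bases and GAAA again, was in none of the 9 windows and in 3.44% of all. The MEF2 motif, which is CTA and TAG with any 4 bases between, was in none and in 3.69%. The LXR motif, which is AGGTCA, any 4 bases and AGGTCA again, was in none and in 0.0152%. Both strands were searched throughout, and a match describes letters and not binding.

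CpG content also differed among the member promoters. The windows of Tyro3, Pros1, Gas6 and Mertk held 31, 21, 17 and 14 CpG dinucleotides, against a median of 13 over promoters of protein-coding genes. Those of Axl and Cd300lf held 6 each, Timd4 5, Havcr2 3 and Cd300a 1. Among promoters of protein-coding genes with 0 to 4 CpG, 7.77% (469 of 6035) overlapped a merged peak, and with 15 or more, 81% (8067 of 9957) did. Havcr2 was thus a CpG-poor promoter under a peak of 4 subpeaks, and 6.06% of the promoters in its class had a peak of 4 or more. The other CpG-poor member, Cd300a, had no peak in its window, and its nearest peak had its centre 263 bp downstream of the start site.

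None of the 51 peaks was in either of the authors' differential lists. The YSM list, read from its name as peaks more accessible in YSM than in MDM, held 1104 merged peaks (1.48% of all), and the MDM list held 108 (0.145%). At these shares 51 peaks would hold 0.754 YSM-listed and 0.0737 MDM-listed peaks. A count of 0 of 51 allows a share of up to 5.88%, for counting error alone, so a difference of the genes from the background was not detectable with this number of peaks. Counted by gene, 4.27% of the 15389 genes with a merged peak held a YSM-listed peak and 0.539% an MDM-listed one. The sources used here do not give the thresholds behind the lists, and a peak outside them is not shown to be equally open in both groups.

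The members differed more in how many peaks they had and how often these were called. The number of peaks ran from 2 at Tyro3 and Cd300lf to 14 at Mertk, with a median of 4.5, against a median of 3 over genes with a peak. Of the 51 peaks, 33 (64.7%) had 4 or more subpeaks, against 57.7% of all merged peaks. Single-subpeak intervals numbered 9 (17.6%, against 20.3%), of which 5 were at Timd4, 2 at Pros1 and 2 at Megf10. By position, 11 of the 51 (21.6%) had their centre within 1000 bp of an end of the gene, 30 (58.8%) lay deeper inside it and 10 (19.6%) farther outside. Over all assigned peaks these shares were 21.9%, 48.7% and 29.4%. The median width was 228 bp, against 236 bp over all merged peaks.

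**Figure D1:**
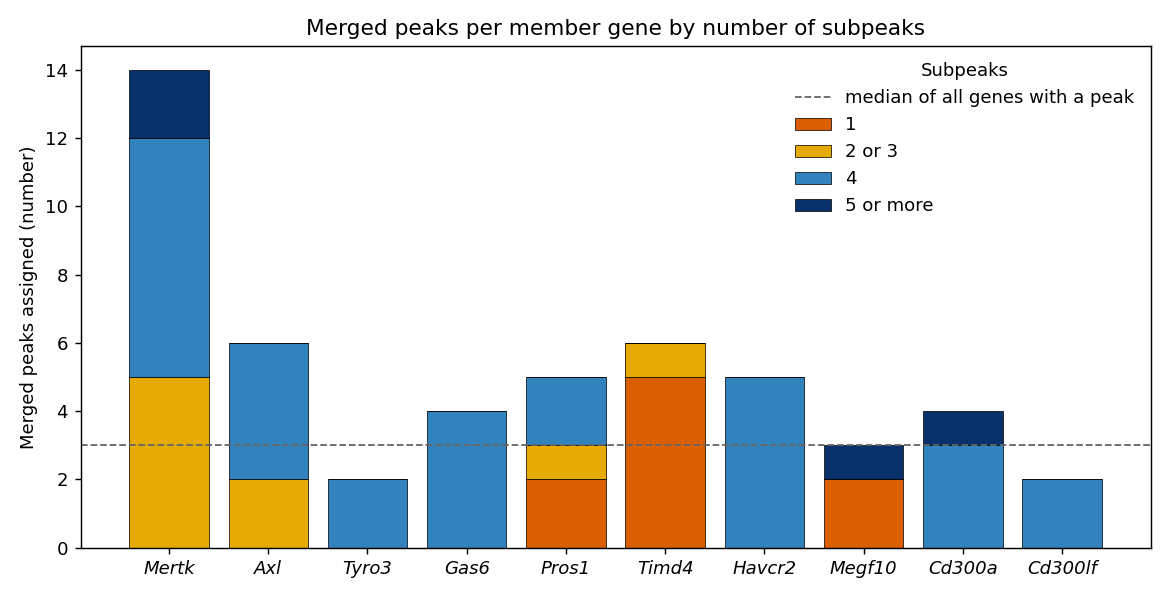
Number of merged peaks assigned to each of the 10 genes (bars, y axis), split by the number of subpeaks in each peak, with the median over all genes with a peak as a dashed line at 3. Mertk has 14 peaks, Timd4 has 6 with none of 4 or more subpeaks, and all peaks of Tyro3, Gas6, Havcr2, Cd300a and Cd300lf have 4 or more.

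Mertk had the most peaks of the 10 genes. It encodes the TAM kinase most used by macrophages for taking up dying cells, and lies on chromosome 2 from 128698915 to 128803162 on the plus strand. Its count of 14 was reached or passed by 6.19% of genes with a peak. Since the gene spans 104.2 kb, its density inside the gene was 0.959 peaks per 10 kb, close to the median of 0.924 over genes with a peak inside.

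Of the 14 Mertk peaks, 9 had 4 or more subpeaks. A pair lay just upstream of the start site, at 497 and 179 bp, each with 4. The next peaks inside the gene lay 10691 and 20606 bp downstream of the start site, also with 4 each. Less often called were the peaks at 34815 and 42204 bp, with 2 subpeaks each.

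In the middle of Mertk 3 peaks stood close together, at 46997, 47808 and 48766 bp, with 3, 6 and 4 subpeaks. The middle peak (128746496 to 128746950) was the widest of all 51, at 455 bp, and had the most subpeaks. Further along the gene came peaks at 72460 bp (4 subpeaks), 83464 bp (3) and 97732 bp (5). Beyond the far end of the gene lay peaks 406 bp (2 subpeaks) and 3536 bp (4) away. The annotation used gives gene intervals without exons, so exonic and intronic positions were not told apart for any gene.

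**Figure D2:**
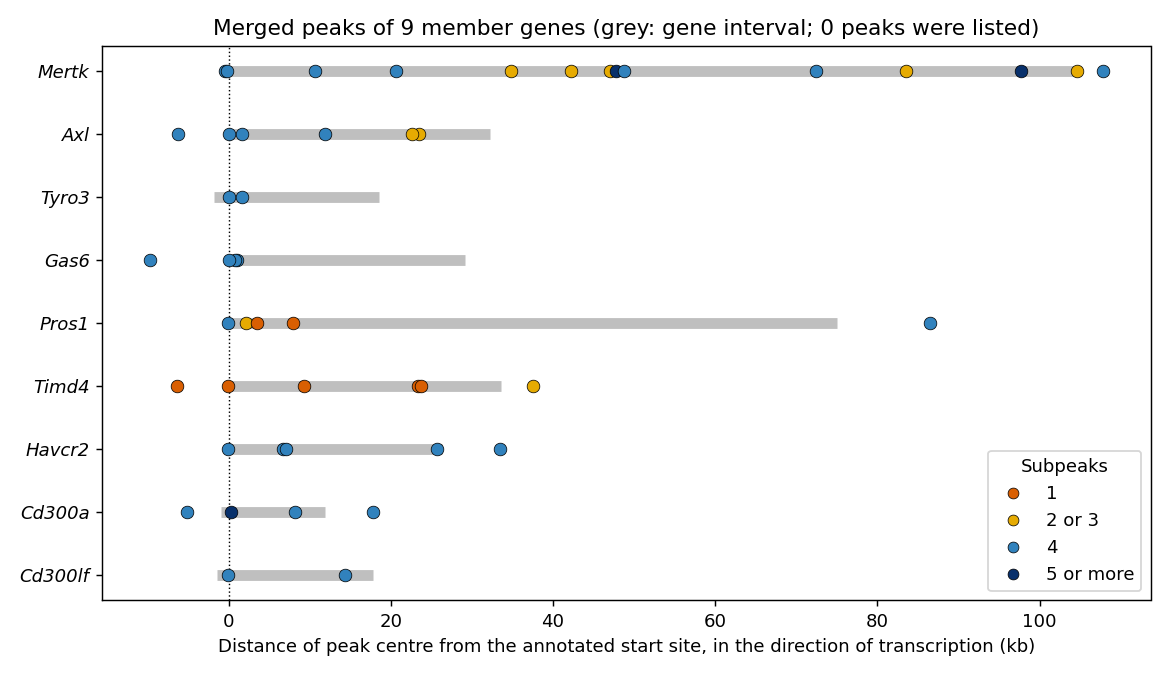
Merged peaks of the 9 genes with a placed start site, each point a peak centre by its distance from the start site in kb, coloured by number of subpeaks, over the gene interval in grey. Mertk peaks spread over the whole gene, both Tyro3 peaks and 3 of the 4 Gas6 peaks sit within 2 kb of the start site, and the 6 Timd4 peaks hold 1 or 2 subpeaks each.

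Axl encodes the TAM kinase that responds to Gas6 and that interferon and inflammation raise in many myeloid cells. It lies on chromosome 7 from 25756500 to 25788924, on the minus strand, and had 6 peaks. The peak centred 26 bp downstream of the start site (25788579 to 25788835) and those 1622 and 11829 bp downstream had 4 subpeaks each. The remaining inside peaks, 22644 and 23438 bp downstream, had 3 and 2. A last peak with 4 subpeaks lay 6260 bp upstream of the start site. Among the peaks inside Axl, those with fewer than 4 subpeaks were thus the ones farthest from the start site. Just past the far end, however, peaks of 4 subpeaks each were centred 274 and 1392 bp from the Axl interval. Their centres lay inside the interval of the neighbouring gene Hnrnpul1, close upstream of its start site, and they were assigned to that gene.

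Tyro3, the TAM kinase best known from neurons, lies on chromosome 2 from 119797740 to 119818104 and had 2 peaks, both with 4 subpeaks. They were centred 72 and 1687 bp downstream of the start site. No peak lay in the rest of the gene, where Mertk and Axl each had several. Tyro3 is the shorter gene, at 20.4 kb against 32.4 kb for Axl and 104.2 kb for Mertk. Its density inside the gene was 0.982 peaks per 10 kb, against 0.959 at Mertk and 1.54 at Axl.

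The ligand genes had 9 peaks. Gas6, which encodes the ligand of all the TAM receptors, lies on chromosome 8 from 13465374 to 13494535 on the minus strand. Its 4 peaks all had 4 subpeaks, and 3 of them were centred 98, 731 and 1081 bp downstream of the start site, with the fourth 9690 bp upstream. Pros1 encodes protein S, an anticoagulant that also activates Mertk and Tyro3, and lies on chromosome 16 from 62854307 to 62929346. Of its 5 peaks, the one 114 bp upstream of the start site and the one 11379 bp beyond the far end of the gene had 4 subpeaks. Between them, peaks at 2096, 3491 and 7905 bp had 3, 1 and 1. The Pros1 peak at the start site thus tied with the one beyond the gene for most subpeaks. The Gas6 peaks did not differ in subpeak number.

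Timd4 was the gene of the 10 with no peak of 4 or more subpeaks. It encodes TIM-4, a tethering receptor for phosphatidylserine found on many resident tissue macrophages, and lies on chromosome 11 from 46810786 to 46844333. Of its 6 peaks, 5 had a single subpeak and 1 had 2, so each lacked a call in at least 2 of the 4 libraries. The single-subpeak intervals were centred 6305 and 103 bp upstream of the start site and 9310, 23377 and 23679 bp downstream of it, and the interval with 2 subpeaks lay 4023 bp beyond the gene. Among the 3974 genes with at least 6 peaks, 26 (0.654%) had none with 4 or more subpeaks, and 15 (0.377%) had none with more than 2. Of the 9224 protein-coding genes with a peak on a promoter window, 241 (2.61%) had nothing better there than a single subpeak, as Timd4 did. The single calls cannot be given to MDM or to YSM.

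Havcr2, on the same chromosome from 46454931 to 46481255, showed the opposite. It encodes TIM-3, a receptor known as a checkpoint of T cells and also expressed by microglia. All 5 of its peaks had 4 subpeaks. They were centred 107 bp upstream of the start site, 6770, 7127 and 25713 bp downstream of it, and 7101 bp beyond the gene.

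Megf10 encodes an engulfment receptor that is best known from astrocytes. It spans 164.4 kb on chromosome 18 (57133090 to 57297467), the longest of the 10 genes, and had 3 peaks. A peak centred 174 bp outside the lower end of the gene and 1 inside it, 12368 bp from the upper end, had a single subpeak each. A peak with 5 subpeaks lay 47435 bp from the gene, the farthest of all 51. With 1 peak inside, the density was 0.0608 per 10 kb, and 98.8% of genes with a peak inside were as dense or denser.

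The CD300 genes on chromosome 11 had 6 peaks, all with 4 or more subpeaks. Cd300a (114889152 to 114901946), an inhibitory receptor, had 4, with centres 5168 bp upstream and 263, 8161 and 17778 bp downstream of the start site. The peak nearest the start had 5 subpeaks and was 419 bp wide. Cd300lf (115116214 to 115135372), the receptor also called CLM-1, had 2, centred 121 bp upstream and 14318 bp downstream of its start site, with 4 subpeaks each. Both of these also lie inside Rab37, a gene that overlaps Cd300lf, and cannot be given to either gene alone.

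YSM-listed peaks came close to Axl without being assigned to it. The neighbouring gene Hnrnpul1 encodes an RNA-binding protein of the hnRNP U family. It lies on the minus strand, like Axl, and its start side is 232 bp from the far end of Axl. Hnrnpul1 held 3 YSM-listed peaks among its 6. They lay inside Hnrnpul1, at 25747076 to 25747292, 25740021 to 25740250 and 25731392 to 25731873, with 3, 4 and 5 subpeaks. Their centres were 9316, 16365 and 24868 bp from the Axl interval, on its downstream side. From the Hnrnpul1 start site they were 7575, 14624 and 23127 bp downstream.

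Of genes with a merged peak, 4.09% had a YSM-listed peak as near as Axl had. Within 50 kb, Axl had 3 YSM-listed peaks, a number that 99 of 15389 genes (0.643%) reached, and 7.62% had at least 1. The counts of neighbouring genes share peaks and are not independent. The 3 peaks also lay 26555 to 42107 bp from Tgfb1, on the other side of Hnrnpul1. Tgfb1 encodes transforming growth factor beta 1, a cytokine on which microglial identity depends. Tgfb1 and Ccdc97, the gene between it and Hnrnpul1, had 4 merged peaks each and 0 listed ones. Which gene the listed intervals act on, if any, was not tested.

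**Figure D3:**
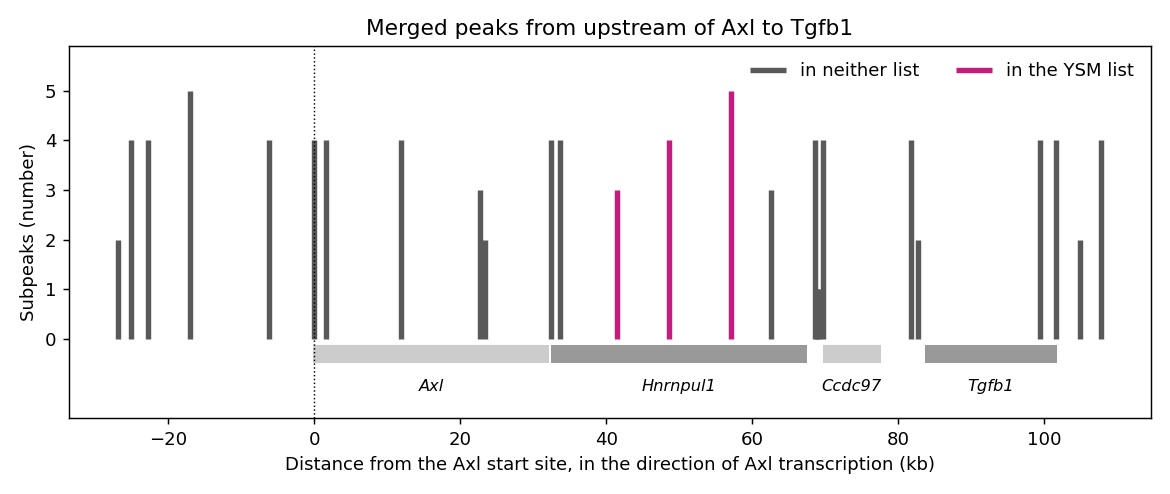
Merged peaks from upstream of Axl to Tgfb1, each a bar at its distance from the Axl start site in kb (x axis) with its number of subpeaks as height (y axis), above the intervals of 4 genes in grey. The 3 YSM-listed peaks lie inside Hnrnpul1, and the 6 peaks of Axl are in neither list.

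No other member had a listed peak within 100 kb. The next nearest were an MDM-listed peak 189.5 kb from Havcr2, assigned to Cyfip2, and a YSM-listed peak 251.7 kb from Megf10, assigned to Ccdc192. The same Cyfip2 peak lay 545.3 kb from Timd4. Of genes with a peak, 2.46% had an MDM-listed peak as near as Havcr2, and 22.1% a YSM-listed peak as near as Megf10. At Gas6 the nearest listed peak was an MDM-listed one at Mcf2l, 481.2 kb away. Of the 10 genes, Mertk was farthest from a YSM-listed peak, at 5955.7 kb, and 93.6% of genes with a peak had one as near or nearer. Its nearest MDM-listed peak was 3957.9 kb away.

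**Figure D4:**
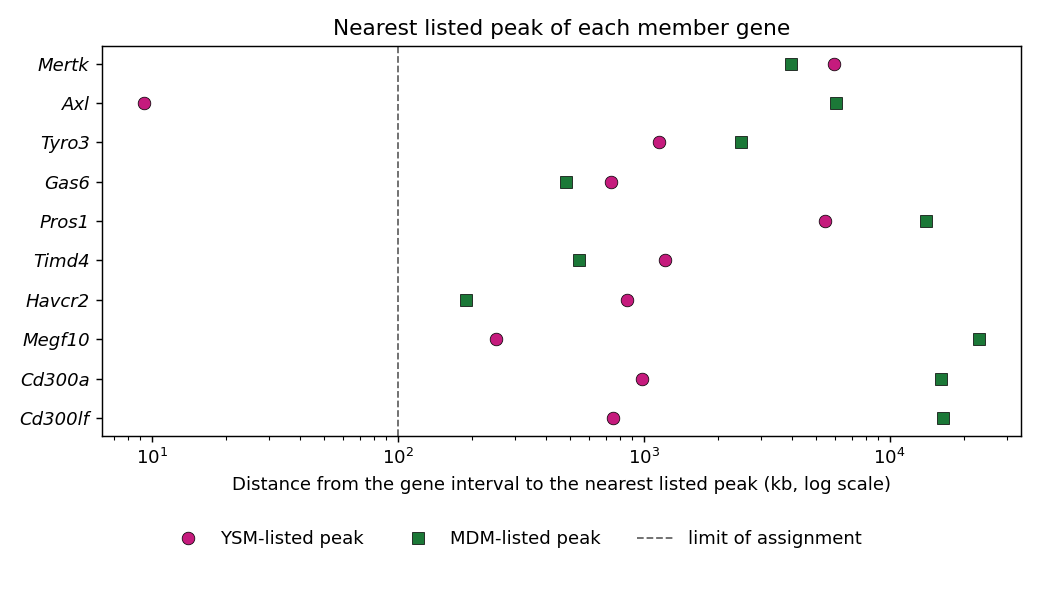
Distance from each of the 10 genes to the nearest YSM-listed (circles) and MDM-listed (squares) peak, in kb on a log axis, with the 100 kb limit of assignment as a dashed line. Axl, at 9.3 kb from a YSM-listed peak, is the only gene of the 10 with a listed peak inside the limit.

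A wider list of 68 other genes of phosphatidylserine exposure, recognition and uptake of dying cells had 549 merged peaks at 63 genes. Of these peaks, 4 (0.729%) were YSM-listed and 0 MDM-listed, against the 1.48% and 0.145% of all merged peaks. Whether such small counts differ from these shares was not tested, and neighbouring peaks are not independent. The YSM-listed peaks were at 3 genes. Edil3, a secreted protein that links phosphatidylserine to integrins, had 2, both outside the gene at 60637 and 61596 bp. Elmo1, which relays engulfment signals to Rac with Dock proteins, had 1 inside the gene (20526319 to 20526548 on chromosome 13, 3 subpeaks). Megf11, a paralogue of Megf10, also had 1 inside (64564384 to 64564643 on chromosome 9, 3 subpeaks).

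The most peaks on the wider list were at Elmo1, with 64 over a gene of 517.8 kb. The cholesterol exporter gene Abca1 had 28, the integrin gene Itgb5 25, Megf11 23, and Ano6, a lipid scramblase gene, and Dock2 22 each. The phosphatidylserine receptor genes Havcr1 and Adgrb1 had no merged peak, nor had Adgrb3, Gulp1 and Scarf1. Peaks with 4 or more subpeaks made up 57.9% (318 of 549) of the wider list, against 64.7% at the 10 genes.

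As a check of the labelled cell type, promoter windows of marker genes were examined. A merged peak overlapped 5 of 5 microglial marker promoters in the table, 4 of 6 of the list for monocyte-derived macrophages and 3 of 4 for border macrophages, against 52.7% of protein-coding genes. The lists for neurons (2 promoters), oligodendrocytes (2), endothelium (2), lymphocytes (2) and neutrophils (3) had 0. The astrocyte list had a peak at 2 of 3. A peak of 4 or more subpeaks was at 3 of 5 microglial, 4 of 6 monocyte-derived macrophage and 1 of 4 border macrophage promoters. It was at 1 of 3 astrocyte promoters and at 48.9% of protein-coding genes. Counted by assignment to the gene, merged peaks were also found at 4 of 4 endothelial and 3 of 4 oligodendrocyte markers. The same held for 2 of 3 neuronal and 3 of 3 lymphocyte markers, but for 0 of 3 neutrophil markers. YSM-listed peaks were 7 of 51 at microglial, 7 of 30 at astrocyte and 2 of 25 at oligodendrocyte marker genes. YSM-listed peaks were 1.48% of all merged peaks. The counts at markers were not split by gene, so they may rest on few genes of a list. The YSM-listed count was 0 among 53 peaks at monocyte-derived macrophage markers and 39 at border macrophage markers. It was also 0 among 34 peaks at endothelial, 9 at neuronal and 6 at lymphocyte markers, and neutrophil markers had 0 merged peaks. With so few peaks, a count of 0 is not told apart from the share of 1.48%. MDM-listed peaks were 0 at the marker genes of every list, against 0.145% of all merged peaks. The part of other cells in any of these peaks was not tested.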

How the data were processed

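The authors processed the reads with Trimmomatic 0.39, Bowtie2 2.2.5, Picard and HOMER on mm10, per the submitters' processing notes. The peak lists of the 4 libraries were combined with HOMER mergePeaks, per the file headers. For peak calling and any Tn5 offset, settings were not given in the sources used here. Values read from the deposited files were interval coordinates and the subpeak number in each interval's name. A score column, deposited by the authors without a stated meaning and 1 except in 27 YSM-listed and 1 MDM-listed intervals, was not used. All 15127 single-subpeak intervals were 201 bp wide. All 1212 listed intervals matched a merged peak exactly. Coordinates were made 1-based.

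Distances run from peak centres to gene intervals of RefSeq (GRCm38.p6). A peak inside several genes counted for each. All 10 members, and from the wider list the genes with a listed peak or the 5 highest peak counts (a tie at 22 added a sixth), were named by rule. Members and lists were chosen with earlier results of these data known. CpG content, the counts at Timd4 and the Axl region were examined after seeing the data. No test was run, as there were no values per library. Python 3.11.15, pandas 2.3.3 and numpy 2.4.6 were used. The assignment was tested on simulated peaks. Alternatives covered distance, gene kind, subpeak minimum, merging, overlap and edge width.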

Additional observations from a re-analysis of the deposited data

How the results depend on the processing

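Of 89 values under an alternative, over 16 results, 69 stayed within 1.5 times the first value and 20 moved. Some of the 69 could not have moved, so this share does not measure stability. The farthest peak of the 10 genes was 47435 bp away, so a 50 kb limit left their values fixed. A subpeak minimum or more gene kinds can only remove peaks, and cannot raise a listed count from 0. The subpeak minimums also leave the count of peaks with 4 or more subpeaks unchanged by definition. With any gene within 50 kb in place of the nearest, the 10 genes had 118 peaks in place of 51, of which 80 in place of 33 had 4 or more subpeaks, and the YSM-listed peaks went from 0 to 3, all at Axl. With at least 4 subpeaks the genes had 33 peaks, and Timd4 had 0. With a 50 kb limit the wider list held 2 listed peaks in place of 4, without those at Edil3. With genes of every annotated kind, 47 peaks remained, and the peaks lost (1 each at Mertk, Axl, Timd4 and Megf10) lay nearer to a lncRNA or pseudogene. With peaks within 1000 bp merged there were 43 sites, and Gas6 had 2 in place of 4. The MDM-listed count was 0 under each alternative run. Leaving out a library could not be done without values per library. No paired analysis was possible because the intervals carry no value per library.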
